A study of Homo sapiens with 16 samples.

Results

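The ATP-binding cassette (ABC) transporter genes of human subfamilies A to G were followed through the stepwise acquisition of gemcitabine resistance in a bladder cancer cell line. Members were the genes whose symbol is ABC, a letter from A to G and a number, with pseudogenes and antisense genes left out. This gave 46 of the 39007 gene symbols in the table, with 12 genes in subfamily A, 9 in B, 12 in C, 4 in D, 1 in E, 3 in F and 5 in G. The 16 RNA libraries came from T24 cells, a human bladder cancer line, at the parental phase (P0), and from the GRC1 line at an early (P3), an intermediate (P7) and a late phase (P15), with 4 libraries per phase. GRC1 was derived from T24 by repeated exposure to gemcitabine, a deoxycytidine analog, and a phase is a cycle of exposure and regrowth. GRC1 is 1 of the 4 lines that were made. The labels name 1 culture medium for all phases. All sample titles carry the letters NT, and beyond these the labels do not state whether drug was present at harvest. Nothing states that the libraries of a phase came from separate cultures, so p-values measure the spread between these libraries, which may be technical.

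ABC proteins bind and hydrolyse ATP to move substrates across membranes. Some members of subfamilies B, C and G pump drugs and their conjugates out of cells, while subfamily A and part of G carry lipids and sterols. Other members of B work in mitochondria and lysosomes, D in peroxisomes and lysosomes, 2 members of C are subunits of potassium channels, and E and F have no membrane domain and act with ribosomes.

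Expression was read as deposited, as log2 of CPM plus 1, where CPM is a gene's count scaled to a common library total. The estimated total per library was 33.8 to 50.03 M counts, so 1 count was worth 0.0200 to 0.0296 CPM. Genes at 2 counts were 2.92 to 3.25 times as many as genes at 1 count in each library, so a low value stands for fewer independent fragments than its count. Pearson correlations across genes were 0.996 to 0.998 between libraries of a phase, 0.972 to 0.986 among P0, P3 and P7, and 0.844 to 0.856 between P15 and any other phase. The 4 P15 libraries thus stood apart as a group, and the identity of the cells at P15 was not tested. Genes more than 0.5 (log2) from the median of their phase numbered 100 in P7 replicate 3, 75 in P15 replicate 3, 72 in P0 replicate 2 and 3 to 18 in the other 13 libraries. Of 11 epithelial markers, 6 were above 1 CPM in P0, and their summed level was 2116 to 2192 CPM in P0, then 2371 to 2510, 1693 to 1840 and 675 to 753 in P3, P7 and P15. CDH1, KRT5, UPK1B and UPK3A were at or near 0 throughout, and KRT19 fell from a mean log2 value of 6.43 in P0 to 0.02 in P15. The 5 leukocyte markers summed to 6.16 to 8.50 CPM in P0, 1.83 to 2.15 in P3, 5.50 to 6.11 in P7 and 0.0497 to 0.150 in P15, with PTPRC and CD3E at or near 0 in all phases. The 3 endothelial markers summed to 5.95 to 7.95 CPM in P0 and at most 1.09 in later phases, and the 3 hepatocyte markers in the table to 20.4 to 45.5 CPM over all libraries. Only 1 hepatocyte marker was above 1 CPM in each phase. ALB was at 0 in all libraries of P0 and P15, and TTR in all of P3 and P15. The part that these shifts have in the values of the ABC genes was not tested. In bulk RNA, fewer cells that express a gene and less RNA per cell cannot be told apart.

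A mean above 1 CPM over the 16 libraries was reached by 29 members, which were tested with 13249 genes in all. The other 17 lay below it, and ABCA8, ABCG8 and ABCC13 were listed at 0 in all 16 libraries. ABCG4 passed this filter only through P15, at a mean of 7.61 CPM against 0.869, 0.706 and 1.27 in P0, P3 and P7. ABCC9 passed it through P3 and P7 (13.3 and 6.79 CPM, against 0.195 in P0 and 0.111 in P15). ABCA13 passed it through P0 and P3 (2.30 and 2.42 CPM, against 0.883 in P7 and 0.0143 in P15). The changes of these genes involve the phases through which they entered. Levels between genes were compared as CPM per kilobase of exon. In P0 the highest were ABCF1 at 32.2, ABCF2 at 27.7 and ABCE1 at 23.2, which did not overlap each other over the 4 libraries. They were followed by ABCC1 at 12.1, and then by ABCB10 at 10.7 and ABCD3 at 10.4, whose ranges overlapped. Further down, the ranges of ABCB8, ABCA2, ABCC3 and ABCC5 overlapped in sequence from 3.79 to 2.96, and those of ABCA5 and ABCA3 at 1.70 and 1.69. ABCB1 stood at 1.19 and ABCG2 at 0.885, and ABCC9 was the lowest tested member at 0.0112. The order of the genes depends in part on the length used. Per kilobase of the longest transcript, the means over the 16 libraries were 44.8 for ABCF1, 32.7 for ABCE1 and 31.5 for ABCF2. At that length ABCC1 stood at 17.2, and ABCF3 and ABCD3 at 16.5.

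Summed over the 46 genes, the P0 libraries reached 1129 ± 12 CPM (SD, n = 4 libraries), against 1141 ± 10.2 in P3, 1201 ± 7.17 in P7 and 1288 ± 30.8 in P15. The summed level was highest in P15; these sums are given as levels, without a test. The 5 most abundant genes held 54.8% of it in P0 and 47.4% in P15. The lipid and sterol carriers went from 119 ± 2.39 CPM in P0 to 91.9 ± 3.64 in P3, 113 ± 3.47 in P7 and 269 ± 16.3 in P15. The drug efflux genes held 250.1 ± 7.61 CPM in P0, then 288 ± 3.88, 320.4 ± 2.32 and 313 ± 11.9 in the later phases. The ribosome-associated members went from 478 ± 11.8 in P0 to 440.3 ± 5.97 in P15.

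**Figure D1:**
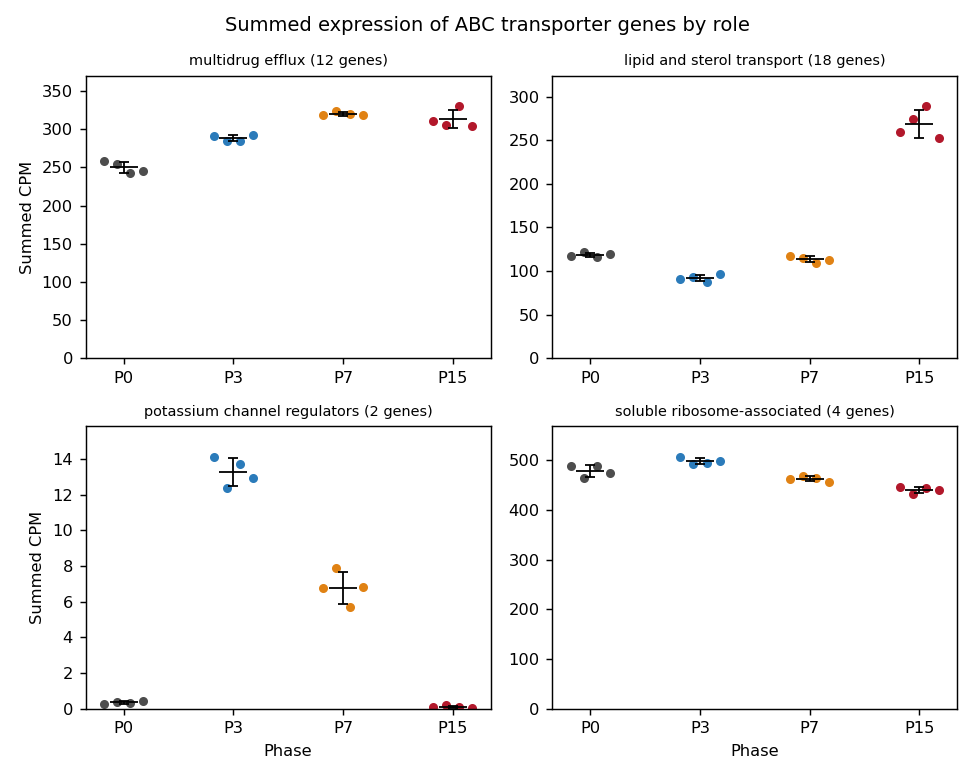
Summed CPM of the ABC transporter genes of 4 roles in each library (points) by phase, with the mean and SD of 4 libraries. The lipid and sterol carriers are highest in P15 at 252 to 289 CPM, and the potassium channel regulators are at 12.4 to 14.1 in P3 and 5.68 to 7.88 in P7 only.

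Phases were compared with limma on the log2 values, with Benjamini-Hochberg adjustment over all tested genes. Log2 fold changes are on the log2(CPM + 1) scale, which understates the change of low genes. In the first step, to P3, 22 of the 29 tested members (75.9%) changed at an adjusted p below 0.05, against 68.7% of all tested genes. Of the members, 9 were higher (31.0%), against 31.4% of all genes, and 13 lower (44.8%), against 37.3%. In the step to P7, 18 changed (62.1%), against 58.2% of all genes, with 14 higher (48.3%), against 30.3%, and 4 lower (13.8%), against 28.0%. In the step to P15, 28 changed (96.6%), against 86.4% of all genes, with 14 higher (48.3%), against 46.3%, and 14 lower (48.3%), against 40.1%. Between P0 and P15, 23 changed (79.3%), against 86.2% of all genes, with 13 higher (44.8%), against 45.3%, and 10 lower (34.5%), against 40.9%. The median log2 fold change of the members over these 4 comparisons was -0.05, 0.03, -0.04 and 0.01, and that of all tested genes was -0.03, 0.01, 0.06 and 0.04. These shares were not tested against each other.

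A change of at least 2-fold with an adjusted p below 0.05 was found for 3 members from P0 to P3 (4.47% of all tested genes), of which ABCC9 rose (1.95% of all genes) and ABCA10 and ABCC3 fell (2.51%). From P3 to P7 it was found for ABCC3 alone, which rose (1.84% of all genes changed by 2-fold, 0.996% upward and 0.845% downward). In the step to P15 it was found for 8 (25.5% of all genes), of which ABCA2, ABCA3, ABCA7 and ABCG4 rose (13.4%), while ABCA1, ABCA5 and ABCC9 were among those that fell (12.1%). Between P0 and P15 it was again found for 8 (23.6% of all genes), of which ABCA2, ABCA3, ABCA7, ABCB8 and ABCG4 rose (12.2%), while ABCA1 and ABCA13 were among those that fell (11.5%). The comparisons share libraries and are not independent of each other. The groups of 4 libraries did not overlap for 21, 19, 26 and 22 of the 29 members in the same order of comparisons, against 60.1%, 51.9%, 80.8% and 79.7% of all tested genes.

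**Figure D2:**
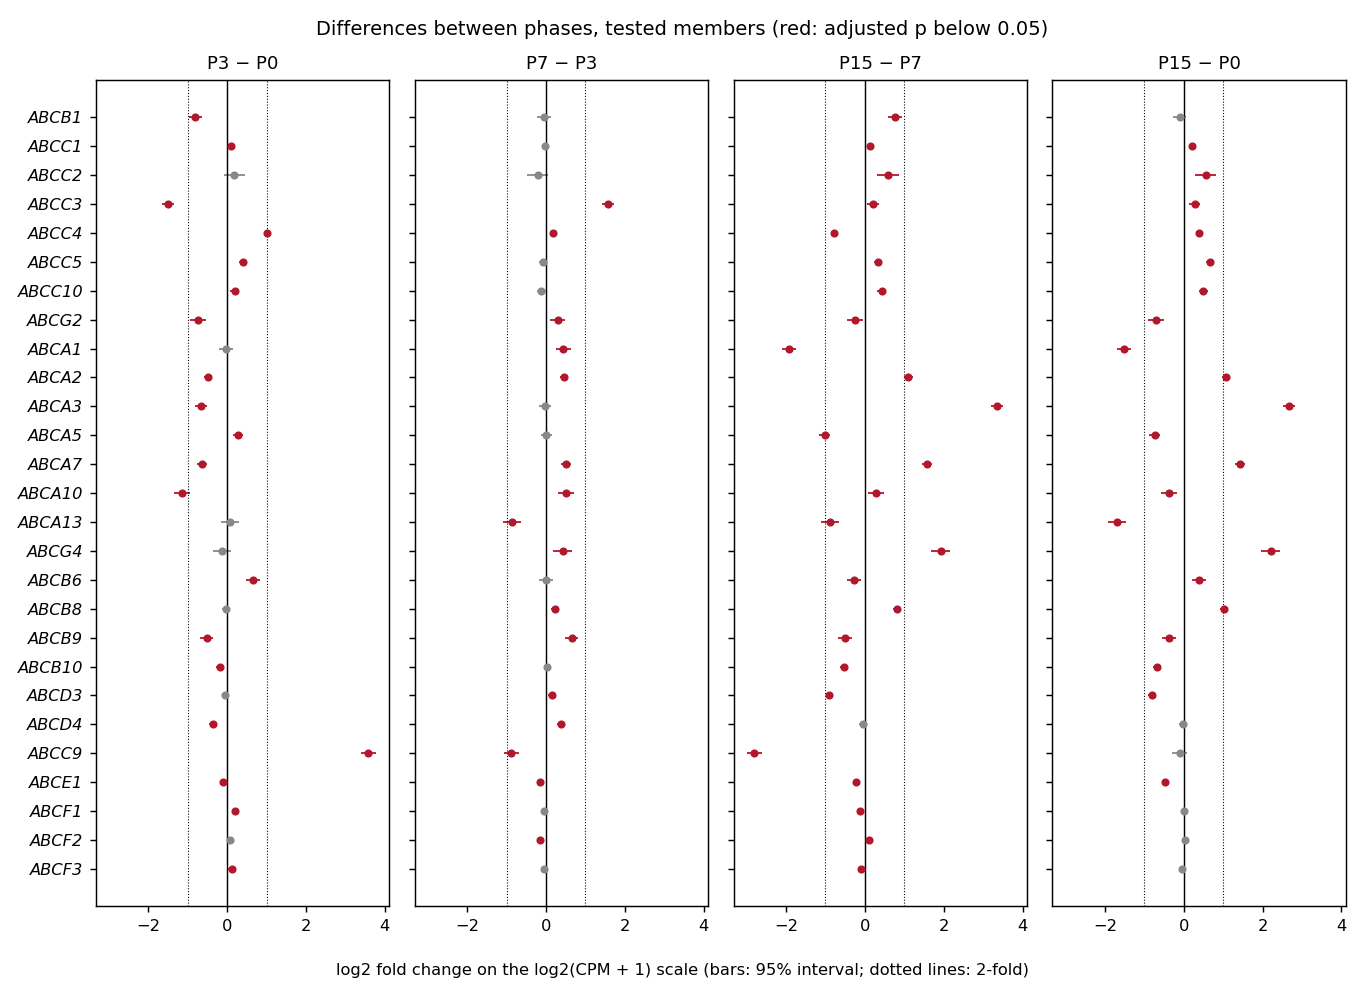
Log2 fold change on the log2(CPM + 1) scale of 27 of the 29 tested members in 4 comparisons, with its 95% interval; red points passed an adjusted p below 0.05 in limma and dotted lines mark 2-fold. From P0 to P3 the point of ABCC9 lies at 3.58 and that of ABCC3 at -1.51, and from P7 to P15 that of ABCA3 lies at 3.36 and that of ABCA1 at -1.93.

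Each member was also placed by the phase in which it was higher or lower than in each of the other 3. ABCA10, ABCB10, ABCE1 and ABCG2 were higher in P0 (10.8% of all tested genes were), and ABCB6, ABCC4 and ABCC5 were lower in it (8.91%). The place of ABCE1 needs its call from P0 to P3, which was lost when any 1 of 9 libraries was left out. ABCC9 was higher in P3 (10.3%), and ABCA2, ABCA7, ABCA10, ABCC3 and ABCD4 were among those lower in it (12.5%). ABCA1 and ABCC4 were among those higher in P7 (7.43%) and ABCF2 was lower in it (7.3%). The late phase P15 held the highest level of 11 members (37.2% of all genes) and the lowest of 7 (32.3%).

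**Figure D3:**
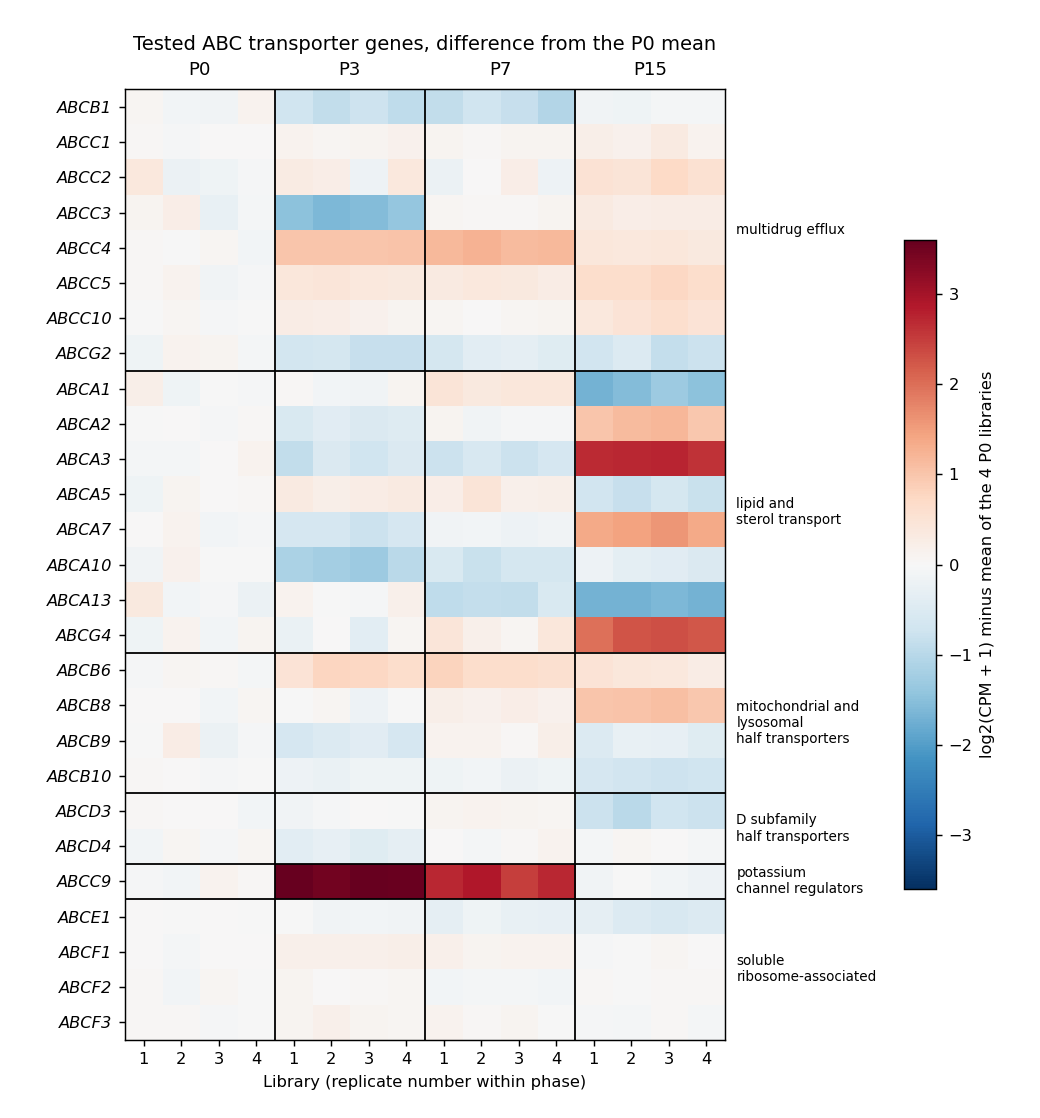
Log2(CPM + 1) of 27 of the 29 tested members in each of the 16 libraries minus the mean of the 4 P0 libraries, grouped by role (blue, lower than P0; red, higher). Libraries of a phase share the same colour for most genes, ABCC9 is red in P3 and P7 only, and ABCA3, ABCA7 and ABCG4 are red in P15.

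Among the drug efflux genes, ABCC4 was raised through P3 and P7, ABCC3 fell at P3 and came back, ABCB1 was lower in P3 and P7 and was not called in P15, and ABCG2 was lower in all later phases. Of the 12 genes of this role, 8 were tested. Between P0 and P3, 4 rose and 3 fell, where 31.4% of all tested genes rose and 37.3% fell. At P15, 6 rose against P7 (ABCB1, ABCC1, ABCC2, ABCC3, ABCC5 and ABCC10) and ABCC4 and ABCG2 fell, where 46.3% of all tested genes rose and 40.1% fell.

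ABCC4, or MRP4, exports cyclic nucleotides and nucleotide analogs (chromosome 13, 95019835 to 95301475, minus strand; all positions are those of GENCODE genes on GRCh38). It had log2 values of 5.57, 5.52, 5.60 and 5.45 in the P0 libraries 1 to 4, 6.53, 6.52, 6.53 and 6.55 in P3, 6.71, 6.78, 6.68 and 6.69 in P7, and 5.93, 5.92, 5.94 and 5.90 in P15. No library of a phase reached into another phase, and the order was P0, P15, P3, P7. The rise from P0 to P3 was 1.00 (SE 0.04, adjusted p = 2.07e-17), a ratio of mean CPM of 2.02, and just under the 2-fold call. It passed that call without P0 replicate 1 or 3, without P3 replicate 2, or with libraries shifted to a common median (1.01). From P0 to P7, outside the 4 comparisons above, ABCC4 was called at 2-fold, from a mean of 45.4 to 104.1 CPM. The fall from P7 to P15 was -0.79 (SE 0.04, adjusted p = 2.13e-16), which left P15 above P0 by 0.39 (SE 0.04, adjusted p = 3.12e-10).

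ABCC5, or MRP5, is also known as an exporter of cyclic nucleotides and nucleotide analogs (chromosome 3, 183919934 to 184017939, minus strand). It had log2 values of 5.15, 5.23, 4.99 and 5.07 in P0, 5.52, 5.55, 5.49 and 5.45 in P3, 5.43, 5.48, 5.45 and 5.37 in P7, and 5.74, 5.74, 5.86 and 5.75 in P15. P0 was lowest and P15 highest without overlap, while P3 and P7 overlapped. P15 exceeded P0 by 0.66 (SE 0.05, adjusted p = 3.04e-12), a ratio of mean CPM of 1.598. ABCC11, which is also tied to nucleotide analogs, stayed below the filter. Its log2 values were 0.00 to 0.18 in P0, 0.07 to 0.26 in P3, 0.04 to 0.16 in P7 and 0.18 to 0.59 in P15, the last being at most 18 counts.

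ABCC3, or MRP3, exports glucuronide conjugates and bile salts (chromosome 17, 50634777 to 50692253, plus strand). Its log2 values were 5.26, 5.39, 4.90 and 5.08 in P0, 3.68, 3.54, 3.61 and 3.77 in P3, 5.24, 5.20, 5.21 and 5.26 in P7, and 5.48, 5.39, 5.43 and 5.43 in P15. The P3 libraries lay below all others, and P0 and P7 overlapped. The fall to P3 was -1.51 (SE 0.07, adjusted p = 5.89e-15), with P0 at 3.02 times the mean CPM of P3, and the rise to P7 was 1.58 (SE 0.07, adjusted p = 7.48e-15), 3.15 times in CPM. P7 and P0 differed by 0.07, with a 95% interval of -0.08 to 0.22 (adjusted p = 0.409).

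ABCB1 encodes P-glycoprotein, an exporter of bulky lipophilic drugs (chromosome 7, 87503017 to 87713323, minus strand). Its 4 libraries per phase read 3.18, 3.02, 2.99 and 3.24 in P0, 2.39, 2.23, 2.36 and 2.20 in P3, 2.23, 2.40, 2.28 and 2.06 in P7, and 2.98, 2.95, 3.04 and 3.05 in P15. The libraries of P3 and P7 were low and overlapped, and those of P0 and P15 were high and overlapped. It fell by 0.81 at P3 (SE 0.08, adjusted p = 6.00e-09), a mean CPM ratio of 0.512, and rose by 0.76 from P7 to P15 (SE 0.08, adjusted p = 6.12e-09). P15 and P0 differed by -0.10, with a 95% interval of -0.27 to 0.07 (adjusted p = 0.246). With quantile normalization this difference was -0.22 and passed at an adjusted p of 0.0156.

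ABCG2, the breast cancer resistance protein, exports a broad set of drugs (chromosome 4, 88090150 to 88231628, minus strand). Its log2 values were 2.41, 2.71, 2.67 and 2.49 in P0, 1.91, 1.94, 1.73 and 1.75 in P3, 1.95, 2.18, 2.24 and 2.13 in P7, and 1.87, 2.08, 1.72 and 1.80 in P15. All P0 libraries lay above all others, and P15 overlapped both P3 and P7. P3 was lower than P0 by -0.74 (SE 0.10, adjusted p = 3.44e-07) and P15 by -0.70 (SE 0.10, adjusted p = 3.23e-07), mean CPM ratios of 0.518 and 0.537. The smaller steps were a rise of 0.29 to P7 (adjusted p = 0.0117) and a fall of -0.26 to P15 (adjusted p = 0.0159). The rise lost its call with quantile normalization (0.22, adjusted p = 0.0578), and with no filter on low genes neither step was called (adjusted p of 0.0506 and 0.0504). The fall also lost its call without P7 replicate 3 (-0.22, adjusted p = 0.0520) or without P15 replicate 3 (-0.21, adjusted p = 0.0590).

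ABCC1, or MRP1, exports glutathione conjugates (chromosome 16, 15949138 to 16143257, plus strand). Per kilobase of exon it stood highest of the membrane transporters in P0, a rank that depends on the length used. It varied little, with log2 values of 6.78, 6.68, 6.74 and 6.74 in P0, 6.85, 6.80, 6.82 and 6.90 in P3, 6.82, 6.79, 6.84 and 6.84 in P7, and 6.94, 6.89, 7.07 and 6.87 in P15. P0 lay below the other phases while P3 overlapped both P7 and P15. P15 exceeded P0 by 0.21 (SE 0.04, adjusted p = 2.46e-05), a mean CPM ratio of 1.16. The step to P3, 0.11 (adjusted p = 0.0161), was not called without P0 replicate 2 (0.09, adjusted p = 0.0507), without P3 replicate 4 (0.09, adjusted p = 0.0641) or with quantile normalization (0.08, adjusted p = 0.0634).

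ABCC10, or MRP7, had log2 values of 4.03, 4.12, 4.01 and 4.04 in P0, 4.31, 4.30, 4.21 and 4.15 in P3, 4.13, 4.07, 4.12 and 4.14 in P7, and 4.44, 4.55, 4.65 and 4.55 in P15. P15 was highest without overlap, by 0.50 over P0 (SE 0.06, adjusted p = 1.02e-08), and P0 and P7 overlapped. ABCC2, or MRP2, the conjugate exporter of the bile canaliculus, was low, with 1.75, 1.16, 1.22 and 1.32 in P0, 1.65, 1.59, 1.19 and 1.74 in P3, 1.15, 1.39, 1.59 and 1.19 in P7, and 1.87, 1.82, 2.08 and 1.90 in P15. The libraries of P15 lay above all others, by 0.56 over P0 in the mean (SE 0.13, adjusted p = 0.000436), and the other 3 phases overlapped. Its difference between P3 and P0, 0.18, did not pass (adjusted p = 0.230), but it did without P0 replicate 1 (0.31, adjusted p = 0.0348) or without P3 replicate 3 (0.30, adjusted p = 0.0480).

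**Figure D4:**
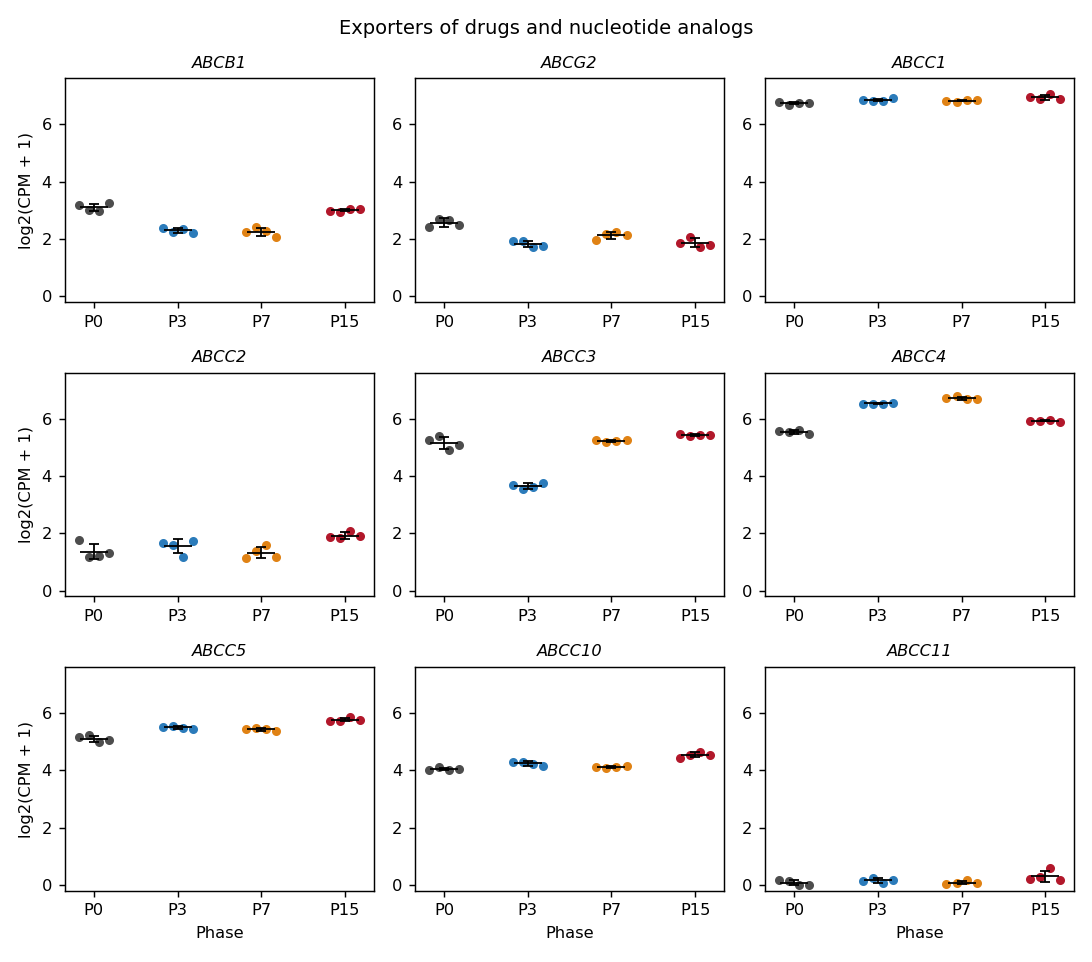
Log2(CPM + 1) by phase of 9 exporters known for drugs or nucleotide analogs; points are libraries and bars the mean and SD of 4 libraries. ABCC4 is high in P3 and P7 (6.52 to 6.78), ABCC3 is low in P3 (3.54 to 3.77), ABCB1 is low in P3 and P7 (2.06 to 2.40), and ABCC11 is near 0 in all phases.

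The lipid and sterol carriers split at P15, where ABCA3, ABCG4, ABCA7 and ABCA2 rose and ABCA1, ABCA5 and ABCA13 fell. Of 18 genes of this role, 8 were tested. At P3, 4 fell (ABCA2, ABCA3, ABCA7 and ABCA10) and ABCA5 rose, against 37.3% and 31.4% of all tested genes. At P15, 5 rose and 3 fell against P7, and of all tested genes 46.3% rose and 40.1% fell. Among the 5, the rise of ABCA10 lost its call with quantile normalization (0.17, adjusted p = 0.127).

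ABCA3 loads phospholipid into the lamellar bodies of lung surfactant cells (chromosome 16, 2275881 to 2340746, minus strand). The log2 values of its libraries were 3.76, 3.76, 3.85 and 3.94 in P0, 2.94, 3.32, 3.10 and 3.30 in P3, 3.06, 3.26, 3.05 and 3.21 in P7, and 6.50, 6.53, 6.57 and 6.42 in P15. P15 was far above the rest, P0 lay above P3 and P7, and these overlapped. The rise from P7 to P15 was 3.36 (SE 0.08, adjusted p = 1.79e-22), a mean CPM ratio of 11.4, after a fall of 0.66 from P0 to P3 (SE 0.08, adjusted p = 3.87e-08). Between P0 and P15 it rose by 2.68 (SE 0.08, adjusted p = 1.84e-20), a mean CPM ratio of 6.80.

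ABCG4 exports sterols and is best known from the nervous system (chromosome 11, 119149052 to 119162653, plus strand). Its log2 values were 0.75, 1.03, 0.81 and 1.00 in P0, 0.66, 0.90, 0.52 and 0.96 in P3, 1.34, 1.08, 0.98 and 1.31 in P7, and 2.88, 3.17, 3.23 and 3.12 in P15. P15 did not overlap the other phases, while P0 overlapped both P3 and P7. It rose by 1.92 from P7 to P15 (SE 0.11, adjusted p = 6.20e-14), a mean CPM ratio of 5.97. P15 is also the only phase through which ABCG4 passed the filter.

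ABCA7, a phospholipid carrier tied to phagocytosis (chromosome 19, 1039997 to 1065572, plus strand), had log2 values of 4.49, 4.62, 4.38 and 4.45 in P0, 3.88, 3.88, 3.72 and 3.88 in P3, 4.37, 4.39, 4.29 and 4.35 in P7, and 5.86, 5.92, 6.06 and 5.84 in P15. ABCA2, a lysosomal lipid carrier best known from oligodendrocytes (chromosome 9, 137007234 to 137028915, minus strand), had 5.46, 5.48, 5.44 and 5.50 in P0, 4.92, 5.05, 4.96 and 5.01 in P3, 5.57, 5.34, 5.43 and 5.44 in P7, and 6.47, 6.62, 6.67 and 6.43 in P15. Both were lowest in P3 and highest in P15 with no overlap there, and overlapped between P0 and P7. In the step to P3, ABCA7 fell by 0.65 (SE 0.06, adjusted p = 9.41e-10) and ABCA2 by 0.49 (SE 0.05, adjusted p = 1.6e-08). In the step to P15, ABCA7 rose by 1.57 (SE 0.06, adjusted p = 5.62e-18) and ABCA2 by 1.10 (SE 0.05, adjusted p = 6.60e-16).

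ABCA1 passes cholesterol and phospholipid to apolipoprotein A-I, the first step of high-density lipoprotein formation (chromosome 9, 104781006 to 104928155, minus strand). It had log2 values of 3.33, 2.96, 3.09 and 3.06 in P0, 3.14, 3.00, 2.98 and 3.20 in P3, 3.56, 3.47, 3.52 and 3.53 in P7, and 1.41, 1.54, 1.79 and 1.62 in P15. P7 was highest and P15 lowest without overlap, and P0 and P3 overlapped. The fall from P7 to P15 was -1.93 (SE 0.09, adjusted p = 2.95e-16), with P7 at 5.17 times the mean CPM of P15. Of 7 tested partner genes of sterol efflux, 5 fell and 2 rose from P0 to P3, against 37.3% and 31.4% of all tested genes, and 3 rose and 3 fell from P7 to P15, against 46.3% and 40.1%. SCARB1, the receptor for high-density lipoprotein, had mean log2 values of 5.46, 3.85, 4.91 and 7.43 in P0, P3, P7 and P15.

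ABCA5, a carrier of the endolysosomal membrane (chromosome 17, 69244311 to 69327244, minus strand), had log2 values of 4.38, 4.64, 4.56 and 4.60 in P0, 4.86, 4.75, 4.80 and 4.86 in P3, 4.79, 5.01, 4.72 and 4.76 in P7, and 3.85, 3.72, 3.91 and 3.74 in P15. Its P15 libraries lay below all others, by -1.02 against P7 (SE 0.07, adjusted p = 4.48e-13). This is at the 2-fold limit, and without P7 replicate 2 the change was -0.95, without P15 replicate 2 it was -0.99 and without P15 replicate 4 it was -0.99. The adjacent gene ABCA10, of whose exon length 3.78% lies in exons of ABCA5, had 1.97, 2.26, 2.09 and 2.10 in P0, 0.97, 0.89, 0.79 and 1.14 in P3, 1.55, 1.30, 1.46 and 1.48 in P7, and 1.93, 1.75, 1.69 and 1.59 in P15. P0 was highest and P3 lowest without overlap. ABCA10 fell by 1.16 at P3 (SE 0.10, adjusted p = 2.87e-10), where ABCA5 rose by 0.27 (SE 0.07, adjusted p = 0.000893).

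ABCA13, the longest protein of subfamily A (chromosome 7, 48171458 to 48647497, plus strand), had log2 values of 2.05, 1.6, 1.67 and 1.51 in P0, 1.84, 1.69, 1.67 and 1.89 in P3, 0.80, 0.85, 0.81 and 1.16 in P7, and 0.00, 0.00, 0.08 and 0.00 in P15. P0 and P3 overlapped, P7 lay below them, and 3 of the 4 P15 libraries were listed at 0. The change from P3 to P7 was -0.87 (SE 0.11, adjusted p = 5.18e-07) and that between P0 and P15 was -1.69 (SE 0.11, adjusted p = 6.12e-13). The first value was -1.38 with a pseudocount of 0.1 and -1.03 with quantile normalization, both 2-fold calls. The second value depends on the pseudocount, since the P15 libraries hold next to no counts, and is no measure of fold. The same holds for the step from P7 to P15, at -0.885, and at -3.11 with a pseudocount of 0.1. P0 and P3 are also the phases through which ABCA13 passed the filter.

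**Figure D5:**
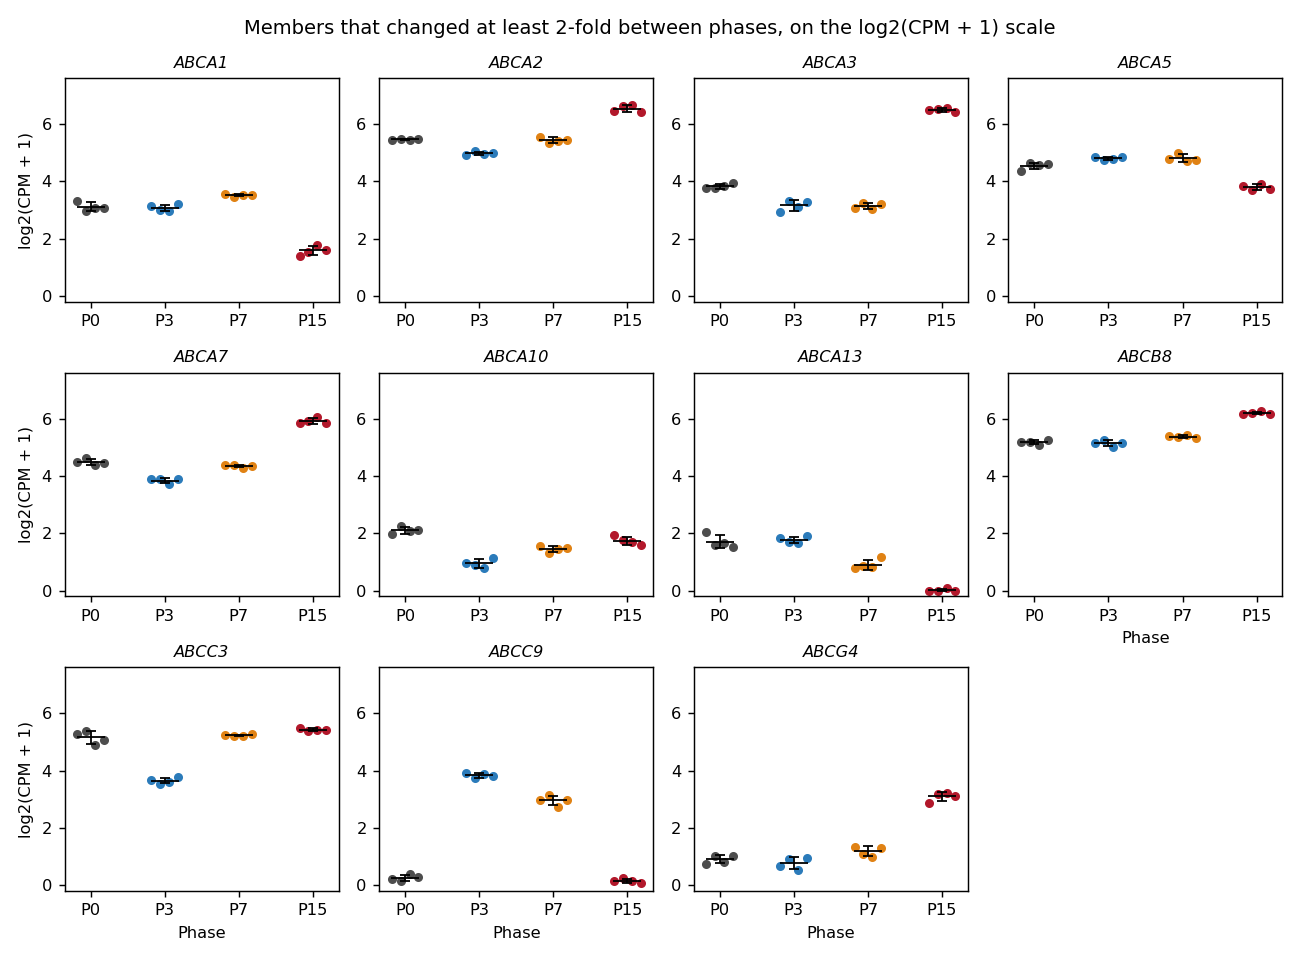
Log2(CPM + 1) by phase of 11 members that changed at least 2-fold on that scale in a comparison; points are libraries and bars the mean and SD of 4 libraries. ABCC9 is at 2.74 to 3.92 in P3 and P7 and at 0.06 to 0.37 in P0 and P15, ABCA3 is at 6.42 to 6.57 in P15, and ABCA1 is at 1.41 to 1.79 in P15.

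The proximal promoters of 4 of these genes are shown to set members that rose at P15 (ABCG4, ABCB8) beside a member that fell there (ABCA1) and the exporter that peaked at P7 (ABCC4). Each is the stretch of 250 bases before the RefSeq start on GRCh38.p14, 5′ to 3′ on the strand of the gene, chosen because at most 30 of its bases lie in an exon of GENCODE. Capitals mark matches on either strand to the GC box GGGCGG, the CCAAT box, the TATA box TATAAA or the antioxidant response element TGACNNNGC, and matches may run into each other. The windows are chr11:119148802-119149051 (plus strand) for ABCG4, chr7:151028200-151028449 (plus strand) for ABCB8, chr9:104928156-104928405 (minus strand) for ABCA1 and chr13:95301452-95301701 (minus strand) for ABCC4.
ABCG4: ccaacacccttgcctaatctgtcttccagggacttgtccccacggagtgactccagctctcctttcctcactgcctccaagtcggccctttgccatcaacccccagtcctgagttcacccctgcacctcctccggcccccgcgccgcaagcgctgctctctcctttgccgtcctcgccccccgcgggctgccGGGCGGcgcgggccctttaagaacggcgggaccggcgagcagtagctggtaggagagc
ABCB8: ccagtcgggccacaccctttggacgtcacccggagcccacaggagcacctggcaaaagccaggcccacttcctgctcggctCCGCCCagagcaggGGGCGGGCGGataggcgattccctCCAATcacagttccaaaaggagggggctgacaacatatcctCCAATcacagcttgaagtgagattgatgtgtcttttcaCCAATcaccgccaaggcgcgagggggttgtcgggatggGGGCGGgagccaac
ABCA1: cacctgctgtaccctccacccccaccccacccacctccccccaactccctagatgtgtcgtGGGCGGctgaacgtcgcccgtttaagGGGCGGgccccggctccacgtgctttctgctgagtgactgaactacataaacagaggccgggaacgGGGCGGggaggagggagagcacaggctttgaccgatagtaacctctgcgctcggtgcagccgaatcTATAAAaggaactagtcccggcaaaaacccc
ABCC4: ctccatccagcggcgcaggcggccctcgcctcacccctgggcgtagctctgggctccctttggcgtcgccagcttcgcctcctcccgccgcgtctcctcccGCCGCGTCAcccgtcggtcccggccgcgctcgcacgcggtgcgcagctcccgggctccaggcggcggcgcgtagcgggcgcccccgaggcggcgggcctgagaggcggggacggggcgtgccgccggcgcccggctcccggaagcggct
Both a member that rose and the member that fell hold several GC boxes, with 4 in ABCB8 and 3 in ABCA1 against 1 in ABCG4. ABCB8 also holds 3 CCAAT boxes and ABCA1 a TATA box close to its start, while the ABCC4 window holds an antioxidant response element letter match and no GC box. Their GC contents were 66.8% for ABCG4, 61.6% for ABCB8, 61.6% for ABCA1 and 80.4% for ABCC4. ABCG4 has another RefSeq start, whose window is not shown because 101 of its bases lie in an exon. That window held 2 GC boxes and an antioxidant response element match. Over the 35 members with a promoter in the RefSeq table, 21 held a GC box in a listed window against 42.6% of 35116 promoter windows, 11 a CCAAT box against 32.0%, 6 a TATA box against 10.7%, and 9 an antioxidant response element against 10.9%. A member with several starts had several windows and so more chances of a match, and a match is a match of letters only.

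In the mitochondrial and lysosomal group of subfamily B, ABCB8 rose at P15 and ABCB10 and ABCB9 fell. All 5 genes were tested. From P0 to P3, 3 fell and ABCB6 rose, against 37.3% and 31.4% of all tested genes. ABCB8 lies in the inner mitochondrial membrane and is tied to iron handling (chromosome 7, 151028422 to 151047782, plus strand). It had log2 values of 5.19, 5.20, 5.08 and 5.26 in P0, 5.16, 5.26, 5.00 and 5.17 in P3, 5.40, 5.35, 5.43 and 5.34 in P7, and 6.18, 6.21, 6.27 and 6.16 in P15. P15 was highest and P7 second, both without overlap with P0 and P3. P15 exceeded P0 by 1.02 (SE 0.05, adjusted p = 1.26e-15), which is at the 2-fold limit, with 0.99 when P0 replicate 3 was left out.

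ABCB10, needed for heme synthesis, went from a mean log2 value of 5.54 ± 0.04 in P0 to 5.35 ± 0.04 in P3, 5.38 ± 0.05 in P7 and 4.85 ± 0.06 in P15 (SD, n = 4 libraries). P15 was lower than P0 by -0.69 (SE 0.04, adjusted p = 1.54e-13). Of 7 listed genes of mitochondrial heme and iron-sulfur synthesis, all of them tested, 7 rose from P7 to P15, as did 46.3% of all tested genes. Among them ALAS1, the first enzyme of heme synthesis, rose by 1.14 (SE 0.03, adjusted p = 6.93e-21) and the iron importer SLC25A37 by 1.28 (SE 0.04, adjusted p = 1.15e-18).

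ABCB9, a lysosomal peptide carrier, was at 3.68 ± 0.20 in P0, then 3.16 ± 0.09, 3.81 ± 0.07 and 3.31 ± 0.11 in P3, P7 and P15, a rise of 0.65 from P3 to P7 (SE 0.08, adjusted p = 5.22e-07) and a fall of 0.50 from P7 to P15 (SE 0.08, adjusted p = 6.80e-06). On the opposite strand, ARL6IP4, OGFOD2 and an unnamed gene overlap 24.6% of its exon length, and the strand setting of the counts is not given, so the reads cannot be assigned with certainty. ABCB6, a porphyrin carrier, rose by 0.66 at P3 from a mean of 1.02 CPM (SE 0.09, adjusted p = 5.45e-07). It shares 54.6% of its exon length with another gene model on the same strand, and its values are uncertain for that reason.

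Of subfamily D, ABCD3 fell at P15 and ABCD4 did not pass there. ABCD3, the abundant peroxisomal membrane protein PMP70, carries branched and dicarboxylic fatty acids. Its mean log2 value was 6.34 ± 0.06 in P0, then 6.29 ± 0.06, 6.43 ± 0.03 and 5.53 ± 0.11 in P3, P7 and P15 (SD, n = 4 libraries), and the fall from P7 was -0.91 (SE 0.05, adjusted p = 2.26e-15). ABCD4, which acts with cobalamin in lysosomes, dipped at P3 by -0.36 (SE 0.05, adjusted p = 8.91e-07) and rose by 0.38 to P7 (SE 0.05, adjusted p = 6.33e-07). Against P7, its P15 level differed by -0.04, with a 95% interval of -0.14 to 0.06. The peroxisome biogenesis genes PEX3 and PEX19, which insert such carriers, differed from P7 to P15 by 0.10 (adjusted p = 0.101) and -0.49 (adjusted p = 2.53e-10).

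The largest swing of the family was that of ABCC9, which encodes SUR2, a regulatory subunit of ATP-sensitive potassium channels (chromosome 12, 21797389 to 21942543, minus strand). It had log2 values of 0.21, 0.15, 0.37 and 0.29 in P0, 3.92, 3.74, 3.88 and 3.80 in P3, 2.96, 3.15, 2.74 and 2.97 in P7, and 0.14, 0.25, 0.15 and 0.06 in P15. P3 was highest and P7 second without overlap, and the low phases P0 and P15 overlapped. The rise from P0 to P3 was 3.58 (SE 0.09, adjusted p = 3.71e-20), from a mean of 0.195 to 13.3 CPM. It was followed by -0.88 from P3 to P7 (SE 0.09, adjusted p = 1.6e-08) and -2.81 from P7 to P15 (SE 0.09, adjusted p = 2.97e-19). P3 and P7 are also the phases through which ABCC9 passed the filter.

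P15 and P0 differed in ABCC9 by -0.10, with a 95% interval of -0.29 to 0.08 (adjusted p = 0.280). At this level the sign depends on scaling, with -0.49 (adjusted p = 0.0292) at a pseudocount of 0.1 and 0.20 (adjusted p = 0.0474) after quantile normalization. ABCC8, or SUR1, the other regulatory subunit, had 2 to 10 counts in the P0 libraries and was listed at 0 in the other 12. The pore subunits behaved otherwise. KCNJ8 stayed below 1 CPM in the mean, at mean log2 values of 0.41, 0.39, 0.15 and 0.70 in the 4 phases, and KCNJ11 had 0.58, 0.22, 0.05 and 3.69, a rise of 3.64 from P7 to P15 (SE 0.11, adjusted p = 5.32e-20) where ABCC9 fell.

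Of the ribosome-associated members, ABCF1, ABCF2 and ABCE1 were the most abundant of the family per kilobase in P0. The log2 fold changes of all 4 ran from -0.47 to 0.19 in the 4 comparisons. ABCE1 recycles ribosomes after termination. It went from 7.19 ± 0.02 in P0 to 7.09 ± 0.05 in P3, 6.94 ± 0.07 in P7 and 6.73 ± 0.10 in P15 (SD, n = 4 libraries), and P15 was lower than P0 by -0.47 (SE 0.04, adjusted p = 4.25e-10). The first step, -0.10 (adjusted p = 0.0451), lost its call when any 1 of 9 libraries was left out (each P0 library, P3 replicate 2, 3 or 4, P7 replicate 4 and P15 replicate 4), with adjusted p of 0.0501 to 0.106. It was also lost with lower filters, with a median shift or without the variance trend (adjusted p of 0.0535 to 0.128). Of the translation factors of subfamily F, ABCF1 rose by 0.19 at P3 (SE 0.03, adjusted p = 1.35e-05), and P15 and P0 differed by 0.01, with a 95% interval of -0.06 to 0.07. ABCF2 fell by 0.14 from P3 to P7 (SE 0.03, adjusted p = 0.000700) and rose by 0.11 from P7 to P15 (SE 0.03, adjusted p = 0.00333), a call lost when libraries were shifted to a common median (0.07, adjusted p = 0.0507), and 37.1% of the exon length of ABCF2 is shared with the readthrough gene ABCF2-H2BK1. ABCF3 was higher in P3 than in P0 by 0.11 (adjusted p = 0.0241), a call lost without P0 replicate 3, P0 replicate 4 or P3 replicate 2 (adjusted p of 0.0588 to 0.0954). Its fall of 0.10 from P7 to P15 (adjusted p = 0.0307) was lost without P7 replicate 1 or 3 or without P15 replicate 1, 2 or 4 (adjusted p of 0.0517 to 0.102). Of 6 partner genes of ribosome recycling, all tested, 3 rose and 2 fell from P7 to P15, against 46.3% and 40.1% of all tested genes.

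Of the 17 members below the filter, ABCB4 had the clearest pattern. It encodes the phosphatidylcholine floppase of liver cells and lies next to ABCB1 (chromosome 7, 87401696 to 87480435, minus strand). Its log2 values were 2.09, 1.97, 2.08 and 2.03 in P0, 0.21, 0.26, 0.13 and 0.24 in P3, 0.34, 0.57, 0.49 and 0.71 in P7, and 0.07, 0.00, 0.08 and 0.00 in P15. These stand for 106 to 123 counts in each P0 library and at most 8, 25 and 2 counts in those of P3, P7 and P15. P0 was apart from all later phases. With the filter lowered to a mean of 0.1 CPM, the difference between P3 and P0 was -1.83 (SE 0.08, adjusted p = 5.24e-16). ABCC6 was also higher in P0, at 24 to 29 counts against at most 17 in any later library, but reads from its near-identical pseudogenes may be split or lost. The sterol exporter ABCG1 was at 0.61 to 0.82 in P7 and at 0.20 to 0.53 in the other phases. ABCA4, ABCA6, ABCA9, ABCB5, ABCB11, ABCC12 and ABCG5 held at most 16 counts in any library, while ABCA12 and ABCD2 reached 56 and 26 counts in P15 replicate 4.

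ABC transporters that carry other symbols were looked at by name. TAP1 and TAP2 form the peptide transporter of antigen presentation. TAP1 had mean log2 values of 5.79, 5.88, 5.84 and 5.77 in P0, P3, P7 and P15 and passed in none of the 4 comparisons, while TAP2 had 4.88, 5.35, 4.95 and 5.53, a rise of 0.65 from P0 to P15 (SE 0.04, adjusted p = 1.53e-12). CFTR, the chloride channel, was listed at 0 in all libraries.

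Of 17 listed transcription factors known to act on ABC genes, 14 were tested. From P0 to P3, 11 fell and 2 rose, against 37.3% and 31.4% of all tested genes, and from P7 to P15, 10 rose and 4 fell, against 46.3% and 40.1%. The list median was -0.34 and 0.64 in these comparisons. The liver X receptors NR1H2 and NR1H3, known to activate ABCA1, rose from P7 to P15 by 0.80 (SE 0.05, adjusted p = 8.38e-14) and 1.10 (SE 0.09, adjusted p = 5.42e-11), where ABCA1 fell. Their partner RXRA fell by 1.87 (SE 0.04, adjusted p = 5.84e-22) and PPARG changed by -2.21 (SE 0.05, adjusted p = 1.99e-22). NFE2L2, the factor of the antioxidant response, rose by 1.28 (SE 0.03, adjusted p = 4.12e-21), and SREBF1, a regulator of lipid synthesis, fell by 1.43 at P3 (SE 0.06, adjusted p = 1.12e-16). The xenobiotic receptor NR1I2, known to activate ABCB1 in liver, was below 1 CPM in the mean of each phase.

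Glutathione genes supply the substrates of the MRP exporters. Of 13 tested, 8 fell and 2 rose from P0 to P3, against 37.3% and 31.4% of all tested genes. From P3 to P7, 9 rose and 2 fell, against 30.3% and 28.0%, and from P7 to P15, 7 rose and 6 fell, against 46.3% and 40.1%. GCLM, a subunit of the rate-limiting enzyme of glutathione synthesis, was higher in P15 than in P0 by 0.84 (SE 0.04, adjusted p = 2.72e-16), and the membrane-bound transferase MGST2 was lower by -4.49 (SE 0.07, adjusted p = 5.52e-26). Of 4 tested drug efflux genes outside the family, 3 rose from P3 to P7, against 30.3% of all tested genes, and 3 fell from P7 to P15, against 40.1%. The copper carrier ATP7B rose by 0.72 from P3 to P7 (SE 0.07, adjusted p = 3.65e-09) and the vault protein MVP fell by 0.70 from P7 to P15 (SE 0.04, adjusted p = 5.59e-14). SLC47A1 and SLC47A2 were near 0.

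The genes that flank the members with 2-fold changes were read for comparison, as the 2 nearest tested protein-coding genes on each side. From P7 to P15, 14 of the 32 neighbours changed in the direction of their member and 12 in the other, and 6 did so by 2-fold in the direction of the member. Over all tested genes 46.3% rose and 40.1% fell in this step, 13.4% and 12.1% by 2-fold. Between P0 and P15, 16 of 32 went with the member, 5 of them by 2-fold, and 13 against it, where 45.3% of all tested genes rose and 40.9% fell. The counts for the neighbours were not tested against those shares. ABCC9, at 3.58 from P0 to P3, lay between LDHB at -0.50 and CMAS at 0.58. ABCA3, at 3.36 from P7 to P15, lay between RNPS1 at 0.04 and CCNF at -0.34, with ECI1 beyond RNPS1 at 1.55.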

How the data were processed

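RNA was sequenced from 16 libraries of T24 cells and the GRC1 line. The authors aligned reads with STAR 2.6.1a to GRCh38, counted them per gene with featureCounts and deposited 1 table of log2 values, which the numbers show to be log2(CPM + 1) rounded to 2 decimals. Strand and multi-mapping settings are not given in the sources used here. The quantile normalization and median centring named in the methods are not visible in the values.

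Groups and replicate numbers came from the labels. Genes with a mean above 1 CPM were fitted with limma 3.58.1 (R 4.3.3), using a mean for each phase, a variance trend and Benjamini-Hochberg adjustment over 13249 genes. A call is an adjusted p below 0.05, and a 2-fold call also needs a log2 change of at least 1. Counts were read back from the steps of low values, and their intervals and floors cover counting error only. The fit was tested on simulated data. Positions and exon lengths came from GENCODE for GRCh38 and promoter sequences from RefSeq (GRCh38.p14), with 35 of 46 members matched. Alternatives covered filters, pseudocounts, scaling, the variance trend, a replicate block and each library left out. Values in every library are given for members with a 2-fold call and for 9 exporters of drugs or nucleotide analogs, and means or ranges for the rest. The members, gene lists and tests were chosen with earlier results of these data known. A few genes, 2 of them tested members, are not reported here by name but are included in the counts and sums.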

Additional observations from a re-analysis of the deposited data

Results flagged for a closer look

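In 80 groups of 4 libraries, a library was looked for that lay far from the other 3, as the gap to the nearest library divided by the whole range and set against Dixon's critical value for 4 samples. There were 4 such groups, and chance gives about 1 in 20, which is 4 of 80. ABCA13 in P7 was higher in replicate 4, at 1.16 against 0.80 to 0.85 on the log2 scale (ratio 0.86). ABCA13 in P15 was higher in replicate 3, at 0.08 against 0 in the other libraries (ratio 1.00). ABCA7 in P3 was lower in replicate 3, at 3.72 against 3.88 in the other libraries (ratio 1.00). ABCC5 in P15 was higher in replicate 3, at 5.86 against 5.74 to 5.75 (ratio 0.92).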

How the results depend on the processing

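Among the alternatives listed for these comparisons, none reversed a called change. The count of members with a 2-fold change from P0 to P3, 3, was 1 when 1 CPM was required in all libraries and 5 with a pseudocount of 0.1. That from P3 to P7, 1, was 2 with a pseudocount of 0.1 and 2 with quantile normalization, and that between P0 and P15, 8, was 5 with a pseudocount of 5. With a pseudocount of 5, the changes between P0 and P15 were -0.85 for ABCA1, -0.54 for ABCA13 and 0.95 for ABCB8, each still called. At that setting ABCA10 changed by -0.49 from P0 to P3 and ABCA5 by -0.84 from P7 to P15, both still called but below 2-fold. With a pseudocount of 0.1, ABCB6 (1.03) and ABCC4 (1.01) passed 2-fold from P0 to P3. ABCA13 passed it from P3 to P7, at -1.38, and at -1.03 with quantile normalization. Requiring 1 CPM in all libraries left out ABCC9 and ABCA10, which had libraries below 1 CPM. Leaving out 1 library at a time gave 20 to 22, 18 to 19, 26 to 28 and 23 to 23 called members from P0 to P3, P3 to P7, P7 to P15 and P0 to P15, and 3 to 4, 1 to 1, 7 to 8 and 7 to 8 at 2-fold. The placements by phase numbered 36, and 33 to 37 with 1 library left out. With a replicate block, 22, 18, 28 and 23 members were called in the same order and 3, 1, 8 and 8 at 2-fold, and the placements numbered 37. The labels hold a second numbering, in the titles, and a block on it gave 36. Correlations between libraries of the same number ran from -0.15 to 0.22, with 1 of 24 pairs above 0.1. Taken over all tested genes, they cannot show whether libraries of the same number shared a culture or preparation. Without phase P15, an alternative chosen after seeing the data, 22 and 19 members were called in the first 2 steps. With quantile normalization, 27 members were called between P0 and P15. Depth limits the members below the filter to differing degrees. ABCB5, ABCB11 and ABCC12 held at most 2 counts in any library, while ABCB4 held 106 to 123 in each P0 library.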
